A study of Mus musculus with 2 samples.

Results

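Neuron-like cells were picked out of a single-cell RNA-seq data set on mouse pluripotent cells. Each of 17720 cells was scored for 4 neuronal genes, Tubb3 (a neuronal beta-tubulin), Stmn2 (stathmin-2, a regulator of growing microtubules), Dcx (doublecortin, of migrating young neurons) and Map2 (a dendritic microtubule protein). The score was the mean over the 4 genes of the natural log of 1 plus the reads per 10000 reads of the cell, and the 150 cells with the highest score were taken as members. The members were thus chosen by the measured levels of these genes in the same cells, which are given as a description and support nothing.

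The cells carried 5 tags, each standing for 1 population and 1 sample of a single pooled library, so that no value has a replicate and no test was made. The naive tag marked Rex1-GFP mouse embryonic stem cells and the primed tag Oct4GIP epiblast stem cells, the latter labelled as strain 129/Ola. The d8 and d16 tags marked primed cells held for a day on embryonic fibroblast feeders with FGF2 and Activin A and then given AICAR, an activator of the kinase AMPK, with leukemia inhibitory factor (LIF) for 8 or 16 days. The d16+10p tag marked d16 cells grown on for 10 passages in 2iL, a culture condition that keeps cells naive through LIF and kinase inhibitors. The methods describe no step that removed the feeder cells, each population came from 1 line, and the tags were bound through antibodies against CD9 and CD63 on the cell surface.

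A newborn neuron leaves the cell cycle and switches on proneural transcription factors, then neuron-specific RNA-binding proteins, cytoskeletal proteins of the axon and dendrites, and the machinery that releases vesicles at synapses. Its transmitter is set by a few genes. Glutamatergic neurons load vesicles through Slc17a6 or its relatives, and inhibitory neurons make GABA with the enzymes Gad1 and Gad2. Genes of this kind are held down in other cells by the repressor REST, which binds the RE1 element, and many are switched on by bHLH factors that bind E-boxes.

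Promoters of leading neuronal genes are shown first, because the genes were high together in the members. RefSeq windows from 250 bases before to 50 bases after the start (GRCm38.p6) were at hand for 16 of the 20 genes with the highest ratio. The stretches below lie just upstream of the RefSeq start on the minus strand, at chr9:22052024-22052273 for Elavl3, chr2:181314501-181314750 for Stmn3 and chr1:79440027-79440056 for Scg2. The Scg2 stretch lies inside the longer gene model of GENCODE M21. Capitals mark the letters named after the sequences.
Elavl3: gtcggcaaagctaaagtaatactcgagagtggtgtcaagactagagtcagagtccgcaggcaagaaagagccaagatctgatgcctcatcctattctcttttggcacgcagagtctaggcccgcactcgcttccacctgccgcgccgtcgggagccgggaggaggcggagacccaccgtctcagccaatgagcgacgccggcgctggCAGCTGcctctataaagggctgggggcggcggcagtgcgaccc
Stmn3: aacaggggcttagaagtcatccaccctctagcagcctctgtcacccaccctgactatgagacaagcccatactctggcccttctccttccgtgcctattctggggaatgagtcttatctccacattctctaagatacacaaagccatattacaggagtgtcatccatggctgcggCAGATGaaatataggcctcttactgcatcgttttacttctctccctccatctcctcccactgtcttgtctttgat
Scg2: ctctataagccgaggagCTGTCCGGTGCTG

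The Elavl3 stretch held the E-box CAGCTG and the Stmn3 stretch the E-box CAGATG. In Scg2 the letters of both parts of RE1, GGACAG and CAGCACC, lay side by side on the opposite strand, without overlap. Searched on both strands, CAGCTG was in the windows of 9 of the 16 leading genes (56.2%) against 18.3% of all 27025 genes with a window, and CAGATG in 6 (37.5%) against 19.2%. GGACAG was in 9 (56.2%) against 24.7%, and CAGCACC in 2 (12.5%) against 8.14%. Genes have unequal numbers of windows, with 7 for Celf3, most of which overlap another, and 5 separate ones for Myt1l. Counted by window, the shares were 34.4%, 31.2%, 34.4% and 6.25% of 32 leading windows against 16.3%, 17.2%, 22.2% and 7.14% of 32851. These are letter matches and say nothing of binding.

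The members carried all 5 tags. There were 12 among 801 naive-tagged cells (1.5%, 95% Clopper-Pearson interval 0.776 to 2.60), 40 among 1826 primed-tagged (2.19%, 1.57 to 2.97), 25 among 9627 d8-tagged (0.260%, 0.168 to 0.383), 51 among 4315 d16-tagged (1.18%, 0.881 to 1.55) and 22 among 1151 d16+10p-tagged cells (1.91%, 1.20 to 2.88). Relative to its cells, the d8 tag thus had the fewest members, with an interval below those of all other tags, and the primed interval lay just above that of d16, while all other intervals overlapped. When each cell was thinned to 5000 reads before scoring, the d8 share was 0.417%. The d16 tag gave the most members, 34% of the 150 (26.5 to 42.2). Intervals here and below cover counting error only and leave out the spread between cells. Where tags are ranked by level below, intervals of neighbouring values may overlap. The deposited counts are reads, which are not independent molecules, and no cell number occurred under more than 1 tag.

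The score fell off without a gap at the limit. It was 2.87 in the first cell, 1.96 in the median member, 1.5 in the last member and 1.48 in the first cell outside. The last member had 3 reads of Tubb3, 5 of Stmn2, 1 of Dcx and 0 of Map2 among 4015, and the first cell outside had 4, 4, 0 and 2 among 5135. All 4 genes had a read in 107 members, 3 of them in 42 and 2 in 1 member. Among the 13866 other cells with the d8 or d16 tag, the reference for ratios below, 40 had a read of all 4. Taken singly, Stmn2 had a read in 6964 of these reference cells, Map2 in 2138, Tubb3 in 2045 and Dcx in 619.

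**Figure D1:**
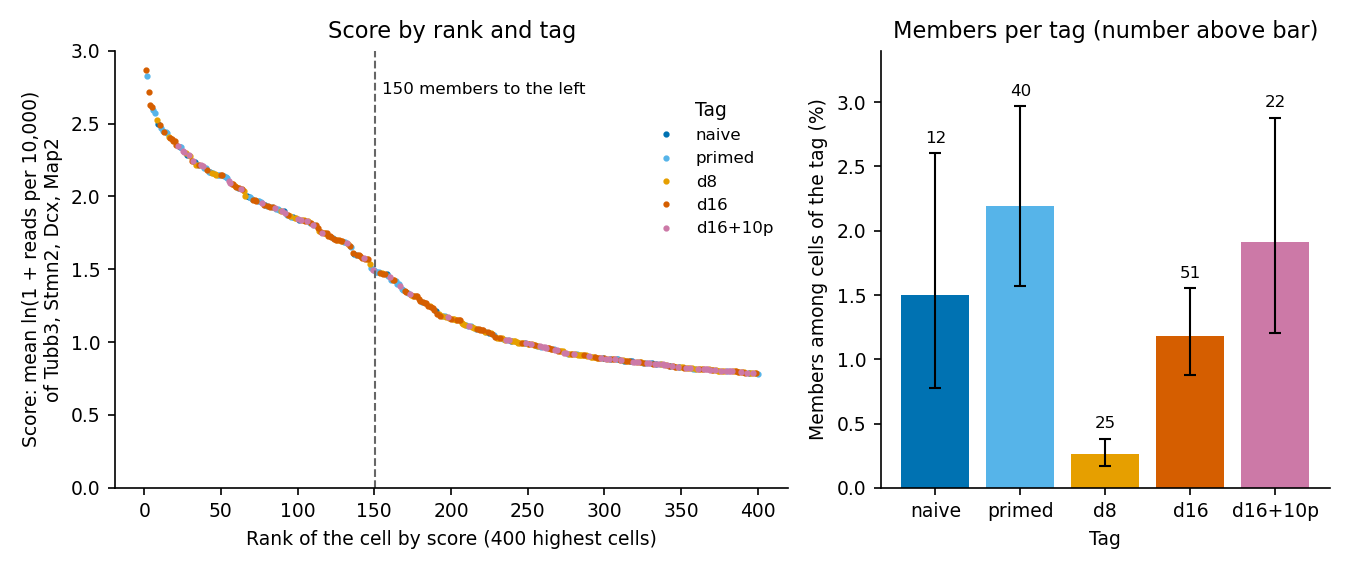
Left, neuronal score (mean natural log of 1 plus reads per 10000 of Tubb3, Stmn2, Dcx and Map2) against the rank of the cell for the 400 highest cells, coloured by tag, with a dashed line after the 150 members. Right, members as percent of the cells of each tag with 95% Clopper-Pearson intervals and their number above the bar, from 0.260% for d8 to 2.19% for primed.

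Members differed from the other cells of their tags in pluripotency genes and Xist, and under the naive and d8 tags in the Y-linked gene Ddx3y. The paper lists both the Rex1-GFP and the Oct4GIP line as XX. The source of the Ddx3y reads was not tested. The summed level of 6 pluripotency genes (Pou5f1, Nanog, Zfp42, Dppa5a, Esrrb and Tdgf1) was 253 CPM (reads of the genes per 1000000 reads of the group) in naive-tagged members against 4131 in the other naive-tagged cells, and 251 against 4169 under the d16+10p tag. It was 266 against 849 under primed, 259 against 362 under d8 and 213 against 2423 under d16. Members of all tags thus had like low levels, whereas the other cells differed by tag. Xist, the RNA of the silenced X chromosome, was at 632, 555, 645, 777 and 566 CPM in naive-, primed-, d8-, d16- and d16+10p-tagged members against 103, 226, 224, 293 and 99.6 in the other cells of those tags. The Y-linked gene Ddx3y had 0, 3, 0, 2 and 2 reads in members of these tags, against 58.4, 7.17, 31.9, 7.26 and 5.48 CPM in the other cells. The 0 reads allow up to 47.4 CPM under naive and 17.3 CPM under d8, below the other cells of both tags, while under primed and d16+10p the members were at 11.3 and 14.3 CPM with intervals that held the value of the other cells.

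Both proteins that carried the tag had lower RNA in the members. Cd9 was at 94.4 CPM against 250 in the reference and Cd63 at 598 against 1397. Naive-tagged members had 2 reads of Cd9 (31.6 CPM, Poisson interval 3.82 to 114) against 414 CPM in the other naive-tagged cells. These genes were added to the lists after their values were seen. Their part in the tag calls of the members was not tested, so values are given below by tag as well as together.

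**Figure D2:**
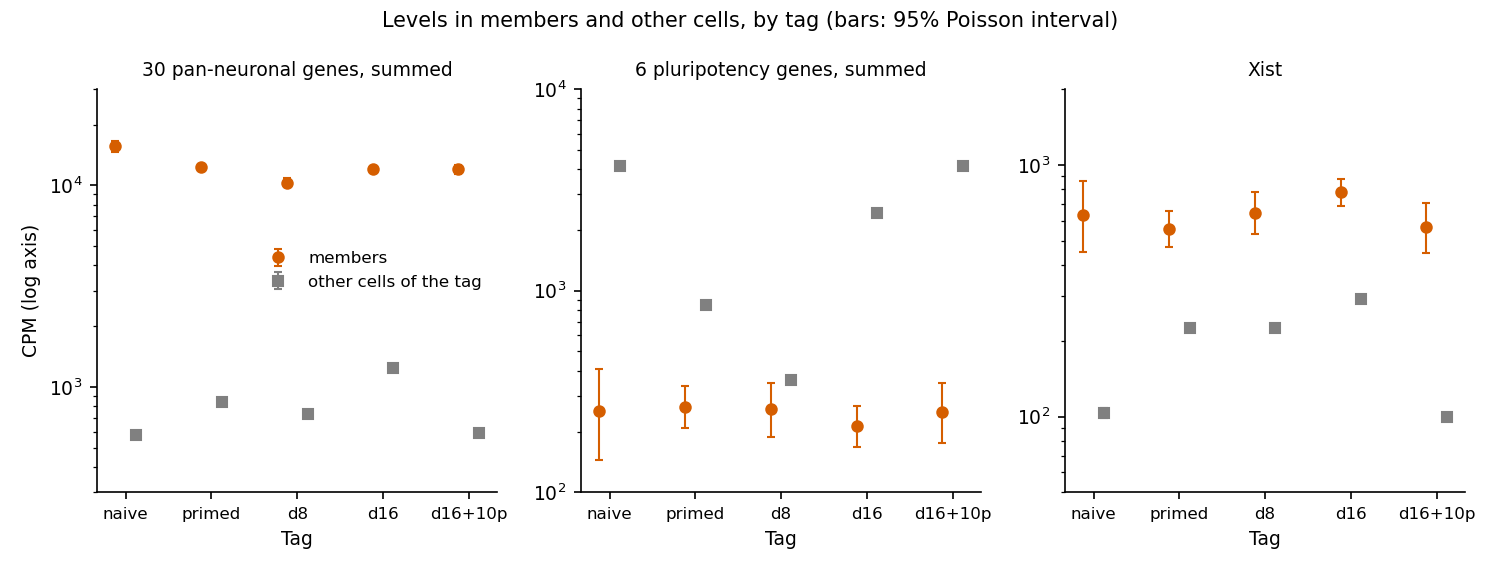
CPM (log axis) of 30 pan-neuronal genes summed, 6 pluripotency genes summed and Xist, in members (circles) and in the other cells of the same tag (squares), with 95% Poisson intervals. Members of the 5 tags lie between 10309 and 15617 CPM for the neuronal genes and between 213 and 266 CPM for the pluripotency genes, while the other cells of the tags spread from 362 to 4169 CPM for the latter.

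Members were shallow cells. Their median was 5594 reads (3199 to 26397) and 2284.5 genes against 13684 reads and 3869 genes in the reference, and 139 of 150 lay below the median of the other cells of their tag. Of their reads, a median of 7.47% were mitochondrial. More than 2000 and fewer than 8000 genes were found in 98 of the 150 members and in 15628 of all 17720 cells. The paper also analyzed 15628 cells after a quality check whose limits it does not state. Members outside these limits may thus have been left out there. Beside the reference, 2 further sets of 150 non-members of all tags were scored in the same way for markers of radial glia, the neural stem cells (Fabp7, Slc1a3, Pax6, Hes5 and Ptprz1), and of macrophages (C1qa, C1qb, Csf1r, Tyrobp and Fcer1g). The radial glia set had a median of 7753 reads and 132 d16-tagged cells, the macrophage set 21871 reads and 145 d8-tagged cells. Shares of cells with a read are therefore also given after each cell was thinned to 5000 reads, which left out 62 members, 22 radial glia-scored and 6 macrophage-scored cells.

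The pan-neuronal profile extended far beyond the score genes. Of 30 pan-neuronal genes outside the score, a member had a read of 17 in the median (3 to 26), against 4 in the reference, 6 in the radial glia set and 3 in the macrophage set. At least 10 of the 30 were detected in 139 members (92.7%), in 5.42% of the reference, in 14 radial glia-scored cells and in 1 macrophage-scored cell. Thinned to 5000 reads, the medians were 17 in 88 members, 5 in the radial glia set, 1 in the macrophage set and 2 in the reference, where 0.319% of cells kept 10 or more.

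By tag the median member had reads of 18, 17, 17, 16 and 17 of these genes under naive, primed, d8, d16 and d16+10p, and the medians hardly differed between tags. Along the score, they were 18, 16 and 17 for 3 bands of 50 members in order of score. The 50 cells just outside had a median of 16, and 43 of them had 10 or more. Thinned to 5000 reads, they had a median of 12 and 64.5% of 31 cells had 10 or more, against 14.5 and 90% of 30 cells in the last band of members, so the limit at 150 fell within a gradient. Summed over the 30 genes, the level was 13756, 11642 and 10871 CPM in the 3 bands of members and 8731 CPM in the 50 cells just outside, against 2504 CPM in the radial glia set and 853 CPM in the reference.

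**Figure D3:**
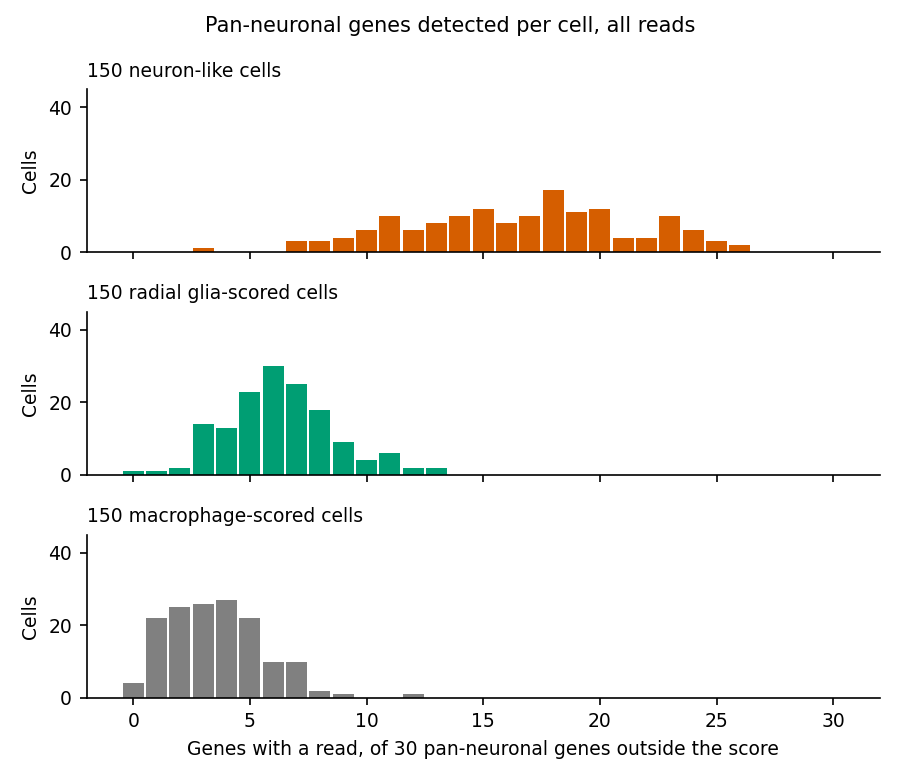
Number of cells (vertical axis) by the number of 30 pan-neuronal genes outside the score that had a read in the cell (horizontal axis, all reads), for the 150 neuron-like cells and for 150 radial glia-scored and 150 macrophage-scored cells. The medians are 17, 6 and 3 genes.

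Across genes, the members were compared with the reference as the log2 ratio of summed CPM with a pseudocount of 1 CPM. Of 4731 genes that had at least 50 CPM in either group and at least 100 reads in all, 19.3% were at least 2-fold higher in the members (915 genes) and 10.1% at least 2-fold lower (480), and the median log2 ratio of all was 0.03. Scaling by TMM, which sets a trimmed mean of all ratios to 0, shifted log2 ratios by -0.24 before the pseudocount was added. With TMM 4701 genes passed the filter, and 46.0% of the genes past 2-fold were higher, against 65.6% without it. Members chosen after thinning each cell to 5000 reads gave 343 higher and 71 lower, and members with the d8 or d16 tag alone 899 and 490.

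All 28 pan-neuronal genes that passed the filter on low values were at least 2-fold higher in the members, with a median log2 ratio of 4.91. The median of the genes' lower bounds was 4.62 and that of their upper bounds 5.09. Over all 30 in the list the median log2 ratio was 4.65. A gene can pass the filter through the group in which it is high, so counts of genes that passed are a description only, here and for the lists below. The median of all listed genes is given beside them. The counts are to be read beside the 19.3% of all genes tested that were at least 2-fold higher and the 10.1% lower. With d8- and d16-tagged members alone the median was 4.84, and with members chosen after thinning each cell to 5000 reads 3.69. Set against the other cells of the same tag, it was 5.51, 4.48, 4.46, 4.42 and 4.86 for naive, primed, d8, d16 and d16+10p, where the medians of all genes tested were 0.07, 0.01, 0.02, 0.03 and 0.17. All 28 were above 0 within each tag except Elavl2, an RNA-binding protein, under d16+10p, at 57.3 CPM in members and 63.4 CPM in the other cells. Rbfox3 (NeuN), a marker of maturing neurons, had a read in 20% of the members and 1.33% of the macrophage set, and in 14.8% and 1.39% after thinning. Because the members were chosen for genes of this kind, these counts describe them and are not support.

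The gene with the highest ratio was Nhlh2 (chr3:102010076-102015492, plus strand), a bHLH factor of newly born neurons. It stood at 695, 503, 749, 843 and 952.8 CPM in naive-, primed-, d8-, d16- and d16+10p-tagged members and at 5.41, 5.90, 3.18, 5.35 and 2.61 CPM in the other cells of these tags. Every group of members was far above its own tag. Primed-tagged members were lowest, with an interval that overlapped that of naive. The log2 ratio over all members was 7.31 (7.16 to 7.45), from 741 against 3.69 CPM. A read was found in 97 members (64.7%), against 3.33% of radial glia-scored and 2.67% of macrophage-scored cells. After thinning the shares were 56.8% of the members, 1.56% of the radial glia set and 0 of 144 macrophage-scored cells, which allows up to 2.08%.

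Ina (chr19:47014698-47025327, plus strand), the neurofilament protein alpha-internexin, followed with a log2 ratio of 7.24 (726 against 3.82 CPM). Its level was 1184, 822, 754, 653 and 487 CPM by tag in the order above, highest under naive and lowest under d16+10p. In the other cells of the tags it was at 17.2, 23.6, 3.28, 5.55 and 27.1 CPM. Mapt (tau, of axonal microtubules) had a log2 ratio of 6.5, at 647, 492, 230, 298 and 244 CPM by tag. Naive- and primed-tagged members were above the others for this gene, and the intervals of the naive (465 to 878) and d8 (165 to 314) values did not meet.

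Elavl3 (an RNA-binding protein of neurons, chr9:22015005-22052023, minus strand), whose promoter is printed above, was at 537, 334, 288, 349 and 265 CPM by tag and at most at 4.11 CPM in the other cells of any tag, with a log2 ratio of 6.48. It had a read in 105 members. Celf3, a splicing regulator, had a log2 ratio of 6.41 (83 members with a read). Relatives outside the first 20 genes had log2 ratios of 5.47 for Elavl4 (469 CPM, 113 members) and 5.38 for Celf4 (792 CPM, 116 members). Myt1l, a zinc finger factor that holds down non-neuronal genes, had a log2 ratio of 6.42 and a read in 60 members.

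**Figure D4:**
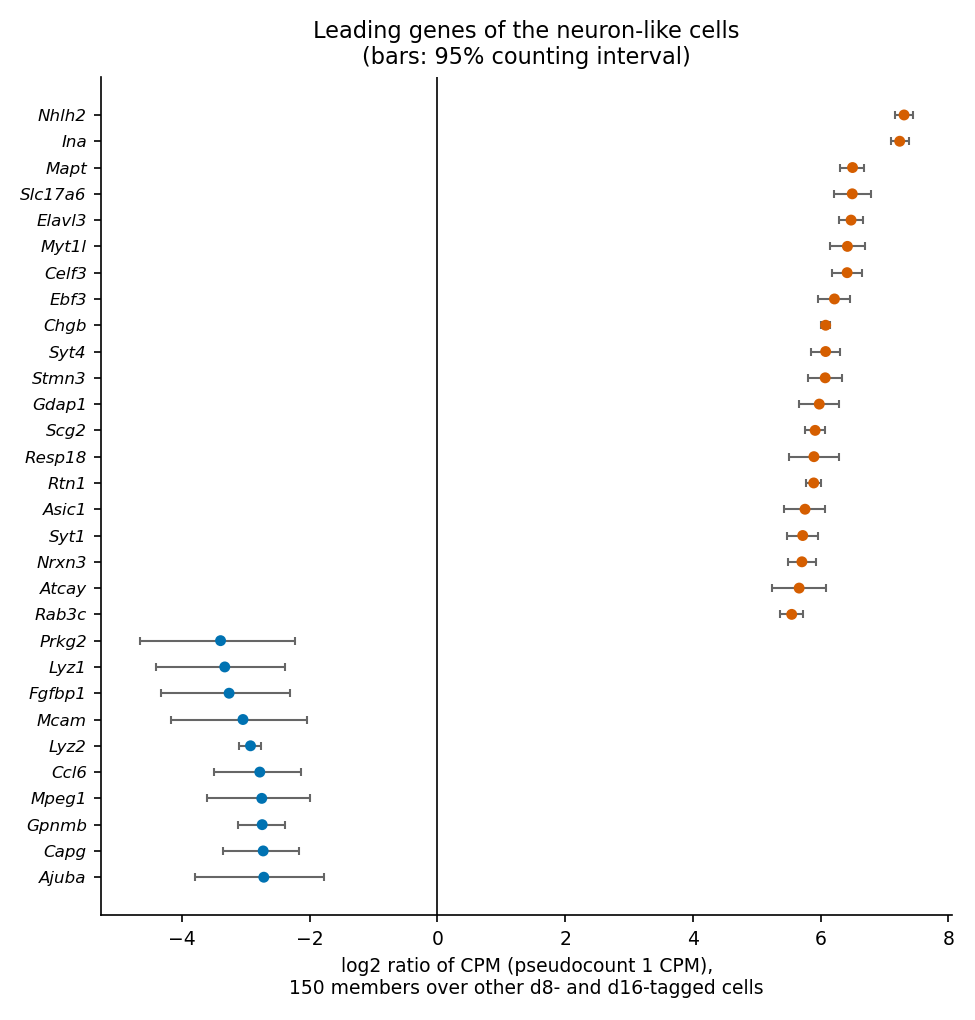
Log2 ratio of CPM (pseudocount 1 CPM) of the 150 members over the other d8- and d16-tagged cells for the 20 highest and 10 lowest genes, with 95% counting intervals. The 20 highest run from 5.55 (Rab3c) to 7.31 (Nhlh2), the 10 lowest from -3.40 (Prkg2) to -2.72 (Ajuba).

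Other pan-neuronal genes were named for their level in the members. Map1b (a microtubule protein of growing axons) was at 1775 CPM with a log2 ratio of 2.78 and a read in 147 members, Gap43 (of growth cones) at 835 CPM with 3.73, Dpysl3 (a collapsin response mediator) at 822 CPM with 2.54 and Nefl (light neurofilament) at a log2 ratio of 3.64 with a read in 89 members. Rtn1 (a reticulon of neuronal endoplasmic reticulum) had a log2 ratio of 5.89 and a read in 128 members. It was at 790, 923, 835, 715 and 853 CPM by tag, so that the 5 groups of members lay close together.

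Of 11 tubulin genes 9 passed the filter, 5 higher, 1 lower and 3 within 2-fold, with a median log2 ratio of 1.14 (0.67 over all 11). Tuba1a had a log2 ratio of 2.96, Tubb2b of 3.72, Tubb4a of 3.81 and Tubb6 of -1.42. Tuba1a was at 6885, 5572, 5955, 5635 and 5810 CPM by tag and had a read in all 150 members. Tubulin genes are alike in sequence and reads may be shared between them. All 3 stathmin genes outside the score were higher, with log2 ratios of 6.07 for Stmn3, 4.92 for Stmn4 and 2.62 for Stmn1.

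Genes of the synapse and of vesicle release were detected as well. All 16 of 23 synaptic genes that passed the filter were at least 2-fold higher, with a median log2 ratio of 4.49 (3.66 over all 23), where 19.3% of all genes tested were that much higher. A member had a read of 7 of the 23 in the median, against 2 in the radial glia set and 2 in the macrophage set. The calcium sensors Syt4 and Syt1 had log2 ratios of 6.08 and 5.72, the vesicle GTPase Rab3c 5.55 and the vesicle protein Sv2a 3.89. Snap25, a SNARE protein of the plasma membrane, was at 268, 109, 69.1, 128 and 122 CPM by tag with reads in 5, 14, 7, 18 and 9 members, highest under the naive tag on 17 reads. Its log2 ratio was 4.62.

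Of the granins, proteins of dense-core vesicles, Chgb had uneven levels between tags. Chgb (chromogranin B) was at 774, 1580, 852, 2999 and 1569 CPM by tag, high under d16 and low under naive and d8, with intervals for d16 (2821 to 3185) and naive (572 to 1023) far apart. Chgb had a log2 ratio of 6.08 and a read in 109 members (72.7%), 18.7% of the reference and 22.7% of macrophage-scored cells. Thinned, the shares were 75%, 7.37% and 6.94%. The intervals by tag leave out the spread between cells. The 5 cells with most reads held 36.9% of the reads of Chgb, and over the 20 leading genes such cells held from 13.8% (Elavl3) to 42.9% (Syt1), with 40.6% for Ebf3 and 40.1% for Slc17a6. Scg2 (secretogranin II), whose promoter piece is printed above, had a log2 ratio of 5.91 and a read in 71 members, and Resp18, another protein of secretory granules, 5.90 and 38 members. Granins are also made by endocrine cells. Of the 6 neuroendocrine and endocrine genes in the table, Chga and Chgb passed the filter and were higher (median log2 ratio 5.54, 1.85 over all 6), whereas Gcg and Neurog3 had no read in the members, which allows up to 3.01 CPM, Ins2 had a read in 1 member and Isl1 in 3.

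Fewer channels and receptors reached the filter. Among all genes tested, 19.3% were at least 2-fold higher. Of 17 ion channel genes (median log2 ratio of all 2.44) 5 passed and were higher, among them Scn3a (a sodium channel, log2 ratio 4.12), Cacna2d1 (a calcium channel subunit, 4.11) and Scn3b (2.61). Of 22 receptor genes (2.89) 2 passed and were higher, among them Gria2 (an AMPA receptor subunit, 4.38). Asic1, an acid-sensing channel among the 20 leading genes, had a log2 ratio of 5.76 in 43 members. All 13 of 20 genes of axon guidance and adhesion that passed were higher, with a median log2 ratio of 3.19 (2.99 over all 20), including Nrxn3 (a presynaptic neurexin, 5.71), Cntn2 (contactin 2, 4.31), Ank3 (ankyrin G, 3.31) and Ncam1 (2.85).

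Transcription factors of newborn neurons were high. Of 24 proneural and early neuronal factors 15 passed the filter, 12 higher and 3 within 2-fold, with a median log2 ratio of 4.39 (3.51 over all 24). Sox11, which acts in young neurons, was at 2132, 2315, 2079, 2832 and 2672 CPM by tag and had a read in 149 members. The other cells of the tags lay between 108 and 332 CPM, and the log2 ratio of Sox11 was 3.35. Sox4 had 1.76, and Btg2, an antiproliferative gene, was within 2-fold at -0.07.

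More restricted factors were found in part of the members. Ebf3, an olfactory/early B-cell factor of differentiating neurons, was at 316, 244, 184, 199 and 71.6 CPM by tag, lowest under d16+10p, with a log2 ratio of 6.22 and a read in 51 members (34%). Thinned, 27.3% of the members and 0 of 128 radial glia-scored cells, which allows up to 2.34%, had a read of it. Its relative Ebf2 was at 143 CPM with a log2 ratio of 5.34 in 36 members. Neurod1 (118 CPM, log2 ratio 5.37) was read in 38 members and Neurog2 (71.3 CPM, 4.39), which acts before it, in 27. In the macrophage set 2 cells each had a read of Ebf2, Neurod1 and Neurog2.

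Transmitter genes were each read in part of the members. Slc17a6 (Vglut2, chr7:51622006-51671119, plus strand), which loads glutamate into vesicles, was at 363, 173, 63.4, 241 and 86.0 CPM by tag and at most at 1.55 CPM in the other cells of any tag. It was highest under naive, on 23 reads in 4 cells, and lowest under d8 and d16+10p. The log2 ratio was 6.5 (6.21 to 6.78). Of the members 43 had a read (28.7%, 21.6 to 36.6), against 1.02% of the reference and 2% of macrophage-scored cells at a median of 21871 reads. Thinned, the share was 31.8% (22.3 to 42.6) against 0 of 128 radial glia-scored cells, which allows up to 2.34%, and 0.694% of macrophage-scored cells. The other vesicular glutamate transporters were sparse, with reads of Slc17a8 in 5 members and of Slc17a7 in 3.

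Gad1 or Gad2 had a read in 48 members (32%, 24.6 to 40.1) in 14.7% of the reference and in 9.33% of macrophage-scored cells. After thinning the shares were 25% (16.4 to 35.4) of the members, 6.09% of the reference, 5.47% of the radial glia set and 3.47% of the macrophage set. Gad2 was at 191, 138, 119 and 136 CPM in primed-, d8-, d16- and d16+10p-tagged members and had 0 reads under naive, which allows up to 47.4 CPM. The levels of the 4 tags with reads had overlapping intervals. Log2 ratios were 4.14 for Gad2 and 2.58 for Gad1. The vesicular GABA transporter Slc32a1 was read in 3 members and the glycine transporter Slc6a5 in 7.

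A read of Slc17a6 without Gad1 or Gad2 was found in 38 members, of Gad1 or Gad2 without Slc17a6 in 43, of both kinds in 5 and of neither in 64. Among members with Slc17a6, 11.6% (3.89 to 25.1) had a Gad read, against 40.2% (30.8 to 50.1) of members without it. At this depth a missing read does not show that a gene was off. With 3 reads as the limit, 16% of the members had Slc17a6 and 13.3% Gad1 or Gad2. By tag, Slc17a6 was read in 4 of 12, 12 of 40, 5 of 25, 17 of 51 and 5 of 22 members and Gad1 or Gad2 in 1, 12, 11, 15 and 9 of them. Only d8 and d16+10p thus had more Gad than Slc17a6 members, and all intervals of these shares overlapped between tags.

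**Figure D5:**
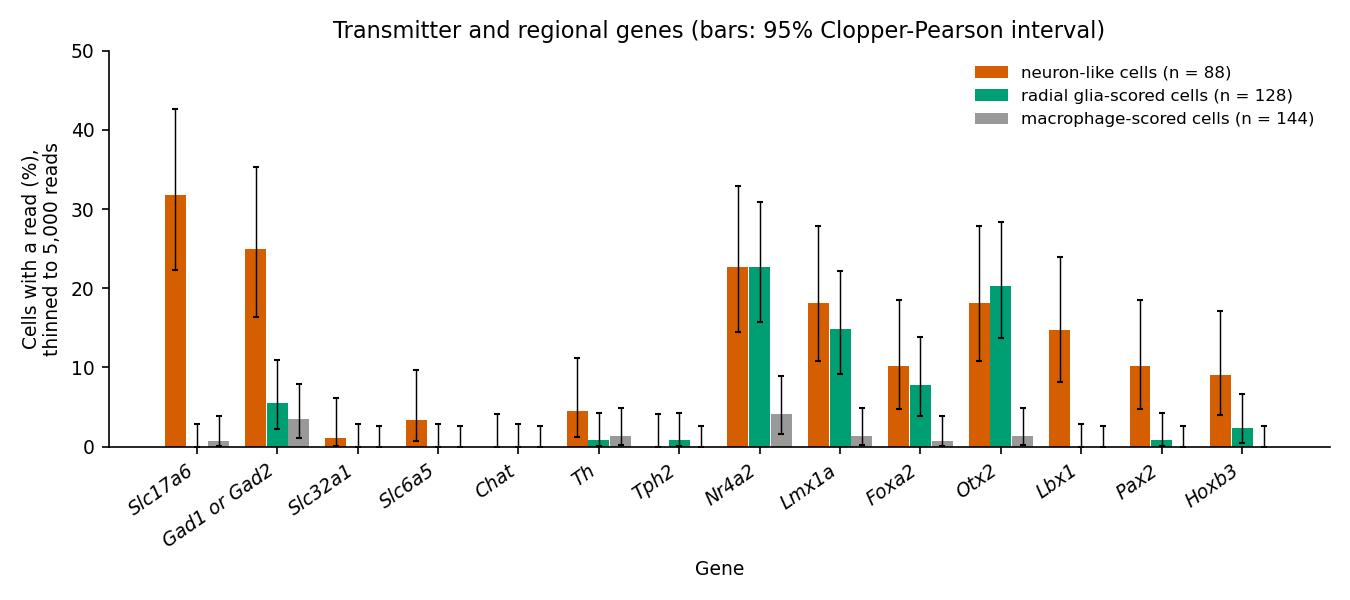
Share of cells with a read (%) after thinning to 5000 reads for transmitter and regional genes, in 88 neuron-like, 128 radial glia-scored and 144 macrophage-scored cells, with 95% Clopper-Pearson intervals. Slc17a6 (31.8% of neuron-like cells) and Lbx1 (14.8%) are at 0 in the radial glia set, while Nr4a2, Lmx1a, Foxa2 and Otx2 have like shares in both sets.

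Genes of other transmitter systems were sparse. Chat, which makes acetylcholine, had no read in 150 members, which allows up to 2%. Th, the first enzyme of catecholamine synthesis, had a read in 6.67% of members, 1.24% of the reference and 5.33% of macrophage-scored cells. Thinned, it was in 4.55% of members (1.25 to 11.2), 0.431% of the reference (0.324 to 0.562) and 1.39% of macrophage-scored cells (0.169 to 4.93), so that the members lay above the reference and overlapped the macrophage set. Tph2, of serotonin synthesis, was read in 1 member. No gene of the cholinergic (9) and serotonergic (7) lists passed the filter. Summed, these lists were at 47.2 CPM (34.7 to 62.8) and 63.3 CPM (48.6 to 81.0) in the members against 14.0 and 17.0 CPM in the reference, and the 12 catecholaminergic genes at 319 against 56 CPM.

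Factors of several regions of the nervous system were read among the members. Lbx1 (chr19:45232684-45235812, minus strand), a factor of dorsal cord and hindbrain interneurons, was at 31.6, 26.3, 132, 19.9 and 43.0 CPM by tag, and the d8 value rested on 23 reads in 8 cells. It was highest under d8, with an interval that overlapped those of naive and d16+10p. After thinning, 14.8% of the members had a read of Lbx1 and 0 of 128 radial glia-scored cells, which allows up to 2.34%. Pax2, which marks inhibitory interneurons of cord and hindbrain among other cells, was in 10.2% of thinned members against 0.781% of the radial glia set, and Hoxb3, of the hindbrain and cord, in 9.09% (4.01 to 17.1) against 2.34% (0.486 to 6.70), with intervals that overlap. In the reference the thinned shares of Lbx1, Pax2 and Hoxb3 were 0.271%, 0.343% and 2.80%. Without thinning they were 12%, 11.3% and 12% of members, 0.635%, 0.858% and 7.68% of the reference and 0.667% of macrophage-scored cells for each. The log2 ratio of Pax2 was 4.92.

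Factors of the ventral midbrain and forebrain were as frequent in the radial glia set. Thinned shares were 22.7% of members and 22.7% of radial glia-scored cells for Nr4a2, 18.2% and 14.8% for Lmx1a, 10.2% and 7.81% for Foxa2, and 18.2% and 20.3% for Otx2. The intervals of both sets overlapped for each gene. In the reference the thinned shares were 9.43%, 3.56%, 3.36% and 11.8%, and in the macrophage set 4.17%, 1.39%, 0.694% and 1.39%. Without thinning, Nr4a2 was in 22% of members, 20.5% of the reference and 16.7% of macrophage-scored cells, and Lmx1a in 16.7%, 7.55% and 8%. By tag, Lmx1a was at 31.6, 78.8, 17.3, 131 and 35.8 CPM, highest under d16, with an interval that overlapped that of primed. Against the reference, log2 ratios were 2.55 for Nr4a2, 3.08 for Lmx1a and 1.00 for Otx2. Nr2f1, a nuclear receptor of the forebrain and other regions, was at 536 CPM in the members and 876 CPM in the radial glia set, with a log2 ratio of 2.40 against the reference.

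Some of these genes were read in the same members. Lbx1 was seen with Ebf3 in 15 of 18 members, against 36 of the 132 without Lbx1 (27.3%), and with Pax2 in 8 of 18 against 6.82%. No member had Lbx1 with Lmx1a (0 of 18, upper limit of the interval 18.5%), against 18.9% (12.6 to 26.7) of members without Lbx1. Lbx1 was in 0 of 26 members with Otx2 (upper limit 13.2%), against 14.5% (8.84 to 22.0) of members without it. The intervals overlapped in both cases. Hoxb3 was in 2 of 26 members with Otx2 and 12.9% of the others. Lbx1 was in 7 of 48 members with a Gad read and 10.8% of the others. Lmx1a went with Slc17a6, in 37.2% (23.0 to 53.3) of the 43 members with Slc17a6 and 8.41% (3.92 to 15.4) of the 107 others. It was seen with Nr4a2 in 11 of 25 and with Foxa2 in 8 of 25. Pax2 went with Gad1 or Gad2, in 22.9% (12 to 37.3) of the 48 members with a Gad read and 5.88% (2.19 to 12.4) of the others. Pnoc, the gene of the peptide nociceptin, was in 11 of 48 and 5 of 102. The pairs were chosen with these data known, and depth differs between members.

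Neuropeptide and other subtype genes were uneven. Of 19 neuropeptide genes, with a median log2 ratio of 0.90, 4 passed the filter and were higher, with log2 ratios of 5.10 for Pnoc, 4.53 for Cartpt, 2.55 for Vgf and 2.43 for Cbln1. Cartpt was read in 18 members and 5 cells held 74% of its reads. Of the 11 cortical genes (median log2 ratio of all 1.82) 5 passed, 4 of them higher, with 5.28 for Calb2 (calretinin, 32 members) and 3.14 for Bcl11b (Ctip2). Summed, the cortical genes were no higher in the members, at 1082 CPM (1018 to 1148), than in the radial glia set, at 1150 CPM (1095 to 1207). Among peripheral genes Prph (peripherin, 52 members) had a log2 ratio of 2.36 and Ntrk2 (a neurotrophin receptor) of 3.14, whereas Runx1 had -1.50. Prph was not particular to the members. It was read in 34.7% of them and 46% of the radial glia set, and thinned in 33.0% and 41.4%. Of the 26 Hox genes 2 passed, both within 2-fold, with a median log2 ratio of 0.41 (-0.07 over all 26). By counting error, 6 of the 26 were above the reference and 6 below.

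Radial glia genes differed in direction. Of 20 genes of progenitors and radial glia 11 passed the filter, 3 higher, 3 lower and 5 within 2-fold, with a median log2 ratio of -0.65 (-0.51 over all 20). Vim (vimentin) was at -1.42, Fabp7 at -1.27 and Hes1 (a Notch target) at -1.13, while Ptprz1, a receptor phosphatase, was at 2.52, Zic1 at 2.12 and Msi1 at 1.77. Summed, these genes were at 2679 CPM in the members and 16305 CPM in the radial glia set, which was scored on 5 of them. By tag the members had 1737, 2195, 3243, 2823 and 2966 CPM, and the other cells 2504, 4079, 5636, 6103 and 2346 CPM. Members were thus below their tag's other cells except under d16+10p, where they were above (2687 to 3266 against 2327 to 2364). Of glial genes Aldoc was at 1.38 and Gja1 at -1.65, and S100b had no read in the members.

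Cell cycle genes were low. Of 21 genes 16 passed, 12 lower, 1 higher and 3 within 2-fold, where 10.1% of all genes tested were at least 2-fold lower. The median log2 ratio was -1.21 (-1.19 over all 21), where all genes tested had 0.03. Top2a was at -1.44, Mki67 at -1.22 with a read in 15 members and Mcm6 at -2.14. The gene that was higher was Cdkn1b (p27, an inhibitor of the cell cycle), at 1.41. Summed, the list was at 774, 927, 1198, 1109 and 802 CPM in members by tag against 5120, 3690, 1617, 3546 and 4937 CPM in the other cells. The members of each tag were thus below its other cells, by least under d8.

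Markers of most other cell types were lower than in the reference. Among all genes tested, 10.1% were at least 2-fold lower. All 5 pluripotency genes that passed were lower, with a median log2 ratio of -1.47 (-1.44 over all 6). So were all 5 epithelial genes that passed (-1.80, or -1.67 over all 7), with Krt18 at -2.54 and Krt8 at -1.92. All 3 smooth muscle genes that passed were lower as well (-1.69, also over all 5), with Acta2 at -1.42. Of 10 fibroblast genes 7 passed, 4 lower and 3 within 2-fold, with a median of -1.16 (-0.95 over all 10). Their sum was 347, 615, 910, 1265 and 702 CPM by tag in members against 759, 1822, 1614, 2563 and 606 CPM in the other cells, below them under all tags but d16+10p. Under that tag smooth muscle genes were at 244 against 216 CPM and macrophage genes at 100 against 91.4 CPM, within the counting intervals of the members. Both macrophage genes that passed were lower (-1.58, or -1.96 over all 8). Summed, the 8 macrophage genes had 94.4 CPM in the members against 325 in the reference and 6389 in the macrophage set. C1qa was read in 3 members. No endothelial or muscle gene passed, and the 5 endothelial genes summed to 22.1 CPM (13.9 to 33.5) in the members against 12.7 in the reference.

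The 10 lowest genes included several of macrophages. Lyz2 (lysozyme) was at 284 CPM in the members against 2168 in the reference, a log2 ratio of -2.93. By tag its level was 300, 356, 253, 227 and 322 CPM in members and 756, 644, 2653, 595 and 405 in the other cells, so the d8 reference stood above all others. Its neighbour and near copy Lyz1, with which reads may be shared, was at -3.33, the chemokine Ccl6 at -2.78, Mpeg1 (perforin-2) at -2.75, Gpnmb at -2.74 and Capg at -2.73. Prkg2 (a cGMP-dependent kinase, -3.40), Fgfbp1 (an FGF carrier, -3.26), Mcam (an adhesion molecule, -3.04) and Ajuba (a LIM protein, -2.72) made up the rest. Set against the other cells of their own tag, the 20 leading higher genes were above 0 in all 5 tags, and the 10 lower ones below 0 in all but the d16+10p tag, where Mpeg1 was above. Both sets were chosen as extremes in these same cells, so this is a description. Of the 10 lower genes 6 had no read in the 12 naive-tagged members. Under d16 the intervals of Prkg2 (-2.44 to 0.80), Lyz1 (-2.91 to 0.33) and Fgfbp1 (-2.54 to 0.07) held 0, while that of Lyz2 (-1.72 to -1.07) did not. Under d8 the interval of Ajuba (-2.51 to 0.21) held 0.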

How the data were processed

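Single-cell RNA-seq of 5 tagged populations was available as 1 pooled cDNA library with a tag library. Per the methods, cells were captured with BD Rhapsody, amplified by TAS-Seq, trimmed with cutadapt 2.10 and mapped with Bowtie2 2.3.4.1 to Ensembl cDNA and ncRNA of GRCm38.p6. The authors counted reads per gene symbol and cell barcode, dropped barcodes under the knee of the read curve, assigned tags and removed cells with an unclear tag as doublets. Doublets within a tag were not removed. The deposited values are raw counts of reads (no molecular identifiers were collapsed) for 33963 genes in 17720 cells, with 3179 to 111822 reads per cell and 307121033 in all, and none was left out here. The tag of a cell came from its column name.

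Members, gene lists and pairs were chosen with earlier results of these data known. The 150 members were ranked on the score described in the report. Counts were summed per group and scaled to CPM. Ratios carry a pseudocount of 1 CPM and genes needed 50 CPM in either group and 100 reads in all. Called means at least 2-fold. Named genes are the 20 highest (with a read in at least 20% of members) and 10 lowest ratios without score and mitochondrial genes, the score genes, transmitter and subtype genes with at least 10 CPM in members (glutamatergic genes, Gad1, Gad2, Slc32a1, Slc6a5, Chat, Slc18a3, Th and Tph2 at any level), and 2 to 4 genes with the highest CPM of each other list. Regional factors of the co-detection pairs, Neurod1, Neurog2, Ebf2, Xist, Ddx3y, Cd9, Cd63 and single list genes given as exceptions were named after their values were seen. Some genes that the rule names are not reported here. Intervals are 95% (exact Poisson, Clopper-Pearson, and conditional binomial for ratios) and a count of 0 allows 3 reads. There are no replicates and no tests. Ratios were tested on simulated data. Python 3.11.15 with numpy 2.4.6, scipy 1.17.1 and pandas 2.3.3, and edgeR 4.0.16 in R 4.3.3 for TMM, were used. Positions are from GENCODE M21 (GRCm38). Alternatives were other depths, score genes, numbers of members, references, filters, pseudocounts and scalings.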

Additional observations from a re-analysis of the deposited data

How the results depend on the processing

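The pan-neuronal median and the 30 leading genes kept their sign under the alternatives run. The 30 genes were taken as extremes in these same cells, and the alternatives reuse largely the same reads. Their sign was thus close to fixed beforehand and supports nothing. The median log2 ratio of all genes, 0.03, was -0.28 under TMM scaling, -0.14 with a filter of 200 CPM, -0.07 without a filter, and just below 0 with thinning to 5000 reads and with limits on genes per cell, and the share of genes past 2-fold that were higher went from 65.6% to 46.0% under TMM scaling. The pan-neuronal median log2 ratio of 4.91 became 3.69 with each cell thinned to 5000 reads before scoring, 4.61 with thinning to 3000 reads (chosen after seeing the data), 3.88 with cells of more than 2000 and fewer than 8000 genes, 4.29 against other d16 cells only, 4.38 with a filter of 200 CPM and 3.51 with a pseudocount of 10 CPM. Genes at least 2-fold higher and lower numbered 343 and 71 with thinning to 5000 reads, 174 and 124 with the 200 CPM filter and 3539 and 2981 without a filter. Lower genes alone numbered 789 under TMM scaling, 317 with thinning to 3000 reads and 241 with the gene limits. Members made up 0.156% of d8 and 0.672% of d16 cells with 100 members, 1.69% of d16 cells with 200, and 0.417% of d8 cells with thinning to 5000 reads. The d16 tag held 67.1% of members when only d8- and d16-tagged ones were kept. With 3 reads calling a cell, 16% of members had Slc17a6 and 13.3% Gad1 or Gad2. The remaining 91 values moved by less than their counting interval or, for counts, by less than 1.5 times. For single leading genes 150 values moved further and 330 did not, among them Mcam from -3.04 to -0.37 and Ajuba from -2.72 to -0.71 with thinning to 5000 reads, and Slc17a6 from 6.5 to 4.1 with a pseudocount of 10 CPM. Of the 150 members, 86 were also chosen with thinning to 5000 reads, 132 with thinning to 3000 reads, and 131 to 135 when 1 score gene was left out. With only cells of more than 2000 and fewer than 8000 genes, 98 were chosen again. Depth limits the shares of cells with a read. No paired analysis was possible because each tag is 1 sample and the results come from no test, and no replicate could be left out.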
